A study of Rattus norvegicus with 2 samples.

Results

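The 10 miRNAs described here are miR-382 and 9 relatives that are encoded beside it, namely rno-miR-154, rno-miR-300-3p, rno-miR-323, rno-miR-369-3p, rno-miR-377, rno-miR-381, rno-miR-409-3p, rno-miR-410 and rno-miR-487b. They were listed by probe name as relatives of miR-382, and are 10 of the 349 rat miRNAs with a probe on the array. The study set the NAc of rats given alcohol beside that of rats given vehicle. Male Sprague-Dawley rats of 150 to 180 g received intraperitoneal injections 2 times a day for 7 days, of 500 ul saline in the vehicle group or of alcohol at 1 g/kg in the alcohol group. The NAc, core and shell together, was the tissue taken, 18 rats were divided over both groups, and whether RNA of several rats was pooled for an array is not stated. Each group has 1 array, so the differences below come without replicates and without a test over animals.

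A miRNA is cut from a hairpin precursor, and the strand that is loaded into an Argonaute protein pairs with messenger RNAs mainly through its seed, bases 2 to 8, which lowers the output of those messengers. The imprinted Dlk1-Dio3 region holds 1 of the largest groups of miRNA genes in mammals, and these are expressed from the maternal chromosome and are abundant in neurons. Several of them act at the synapse, where they restrain proteins of the dendrite or of the synaptic vesicle.

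Each probe had 9 repeat spots on an array, and a spot's density is its mean brightness in arbitrary units. Repeat spots measure 1 RNA sample on 1 array, so their SD is technical. A miRNA was called detected where at least 5 of its 9 spots exceeded a threshold taken from 88 spots of mismatched control probes, their median plus 3 median absolute deviations, which came to a density of 277.7 for vehicle and 178.9 for alcohol. By that rule 8 of the 10 miRNAs were detected on both arrays, miR-369-3p on the alcohol array alone and miR-377 on neither. Ratios are alcohol over vehicle, on the log2 scale, after background correction and cyclic loess normalization of the arrays.

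Among the 8 members detected on both arrays, miR-382 was lower on the alcohol array and miR-154 was higher by at least 1.3-fold, and the other 6 differed by less. Neither call held under all processing. miR-382 was at 0.18 with scaling to the 5S rRNA probes, and at -0.12 without normalization between arrays and -0.16 with spike scaling, both short of 1.3-fold. miR-154 was at 0.33 with the median over spots and 0.37 with the first 5 spots, also short of 1.3-fold. The share past 1.3-fold among the 150 miRNAs detected on both arrays was 25.3% for lower signals (38 miRNAs) and 21.3% for higher signals (32 miRNAs), against 1 of 8 members (12.5%) in each direction. After cyclic loess neither share of the members exceeded that background, but this comparison turned with the processing. Among 18 other ways of processing, the members' share of higher signals was above that of the 150 miRNAs in 11, for example 37.5% against 18.7% with quantile normalization, and their share of lower signals was above it in 1, loess on detected miRNAs, with 25% against 20.7%. The log2 ratios of the 8 members ran from -0.61 to 0.49 with a median of 0.08, and the median of the 150 miRNAs was -0.07.

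miR-382 was measured at spot densities of 3587 at the lowest, 4078 at the median and 4389 at the highest on the vehicle array. On the alcohol array its densities were 3282, 3680 and 4066 in the same order, so before normalization the spots of the arrays overlapped. After normalization its vehicle spots lay between 4096 and 5045 and its alcohol spots between 2717 and 3379, with no overlap. Averaged over spots, the normalized signals were 4614 for vehicle and 3023 for alcohol, or 65.5% of vehicle, with a log2 ratio of -0.61 ± 0.05 (SD over 9 spot pairs). Alcohol was the lower of the pair in 9 of 9 spot pairs. Spots of 1 array without overlap with the other, in the lower direction, were found for 24.0% of the 150 detected miRNAs (36), and for miR-382 alone among the 8 members, though for none of the 8 without normalization or with 5S rRNA or spike scaling, where the share of the 150 was 10%, 2.0% and 10.7%. Of the 150 miRNAs, 22 had a lower ratio than miR-382 and 127 had a higher one.

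miR-154, which gives this group of hairpins its name, differed in the other direction. Its densities were 329.3, 414.8 and 467.5 (lowest, median, highest) on the vehicle array and 816, 924 and 965 on the alcohol array. The raw spots of the arrays were apart, all of them brighter on the alcohol array. After normalization the vehicle spots, at 303 to 508, and the alcohol spots, at 504 to 604, overlapped at their edges. The normalized signals of 402 for vehicle and 563 for alcohol gave a log2 ratio of 0.49 ± 0.26, and alcohol was the higher in 9 of 9 spot pairs. In the direction of higher signals, 10.7% of the 150 detected miRNAs (16) and 0 of the 8 members had spots that did not overlap, while 7 of the 8 did without normalization and with 5S rRNA or spike scaling, under which 58.0%, 74.7% and 54.0% of the 150 did so too.

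The step between raw and normalized values weighed differently on these miRNAs, because the difference in brightness between the arrays changed with the signal. For the 150 detected miRNAs the median density was 952 with vehicle and 1951 with alcohol. Without normalization between arrays the log2 ratio of miR-382 was -0.12 and that of miR-154 was 1.63, and the median of the 150 miRNAs was 0.57. Cyclic loess took 0.49 off the log2 ratio of miR-382 and 1.14 off that of miR-154. In 18 other ways of processing, the log2 ratio of miR-382 ran from -1.34 with median scaling to 0.18 with scaling to the 5S rRNA probes, and it was below 0 in 17 of them. Set against the median of the 150 miRNAs under the same processing, it lay between -0.69 and -0.46 in all 18. Of the 18, 5 shift all ratios by a constant or leave them as they are, and so share 1 set of such distances. In these 5 the distances still hold the difference in brightness that changed with the signal, which subtracting a median does not remove. miR-154 lay between 0.36 and 1.06 above that median in all 18. miR-382 had the lowest ratio of the 8 members and miR-154 the highest in each of the 18, and the log2 distance between them ran from -1.75 to -0.90.

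**Figure D1:**
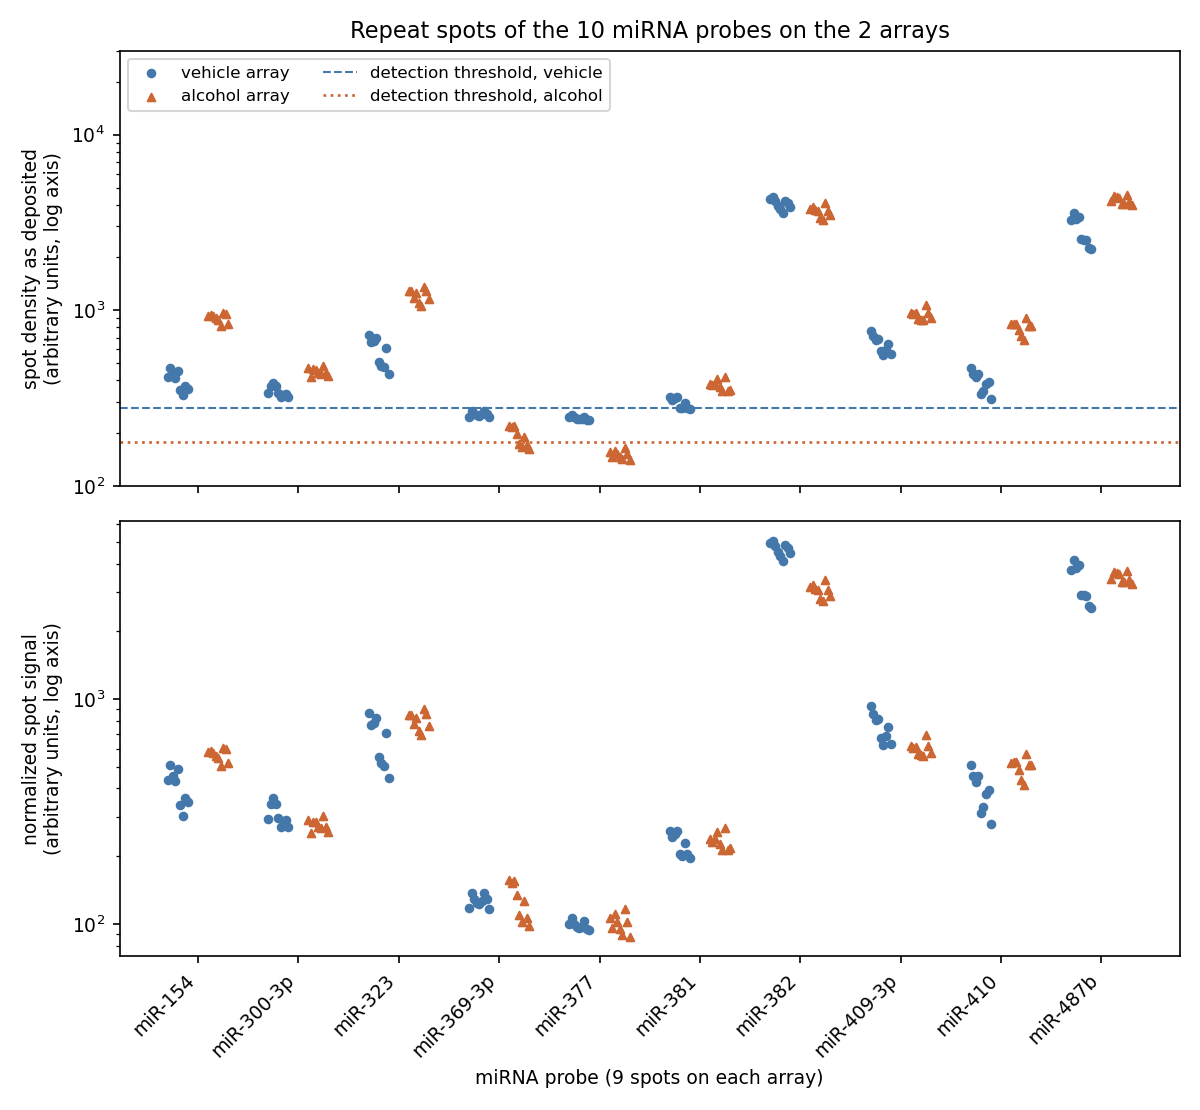
Spot densities as deposited (upper panel) and normalized spot signals (lower panel) of the 10 miRNA probes, in arbitrary units on log axes. Each point is 1 of 9 spots, circles for the vehicle array and triangles for the alcohol array, and the horizontal lines are the detection thresholds of 277.7 and 178.9. For miR-382 the spots of the arrays overlap in the upper panel and are apart in the lower panel, where the vehicle spots start at 4096 and the alcohol spots end at 3379.

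miR-154 and miR-382 are the 5′ arms of their hairpins, and the other 8 members are 3′ arms. The target sequences listed for these 5′ arm probes, equal to the RefSeq mature sequences of GRCr8, are shown because their ratios lie at opposite ends of the group. Capitals mark the seed.
rno-miR-382: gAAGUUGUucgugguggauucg
rno-miR-154: uAGGUUAUccguguugccuucg
Their seeds were equal at 5 of 7 positions. Their hairpins were the most alike of the 45 pairs that the 10 members form, with 75% of aligned positions equal. Over the 45 pairs the median identity was 61.2% (43.0% to 75%), against a median of 49.5% over 260 pairs of a member hairpin with 1 of 26 other hairpins of the region, those that have both a probe on the array and an entry in the RefSeq sequence table. As RefSeq lists them, both hairpins hold the letters UUCGCUU, in capitals here, of which the first 4 are the end of the mature 5′ arm and the last 3 lie past it.
Mir382 hairpin: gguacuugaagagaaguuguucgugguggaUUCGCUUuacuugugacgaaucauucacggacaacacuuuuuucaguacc
Mir154 hairpin: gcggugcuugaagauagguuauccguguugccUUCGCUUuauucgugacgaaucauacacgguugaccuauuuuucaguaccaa
The same letters, searched after the sequences had been seen and on the strand of the hairpin, were in 7 of the 10 member hairpins, in 3 of those 26 others and in 11 of all 419 rat hairpins of the table (2.63%). In these 7 hairpins the letters begin within the mature 5′ arm, by 3 to 5 bases. Members with them were found on both sides of the ratios, since miR-382 has them as well as miR-154, miR-323, miR-410 and miR-487b, besides miR-369-3p and miR-377.

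The working name of this group speaks of a shared seed, and the sequences go against that. The 10 probe targets have 10 different seeds, and none of these was shared with any other of the 349 probes. The members are therefore described here as hairpin relatives, not as miRNAs with common targets. The 8 probe targets from 3′ arms are shown so that the seeds can be compared.
rno-miR-487b: aAUCGUACagggucauccacu
rno-miR-369-3p: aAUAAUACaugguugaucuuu
rno-miR-323: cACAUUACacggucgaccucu
rno-miR-410: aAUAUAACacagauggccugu
rno-miR-409-3p: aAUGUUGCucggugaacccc
rno-miR-300-3p: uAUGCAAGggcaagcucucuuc
rno-miR-381: uAUACAAGggcaagcucuc
rno-miR-377: aUCACACAaaggcaacuuuugg
The closest seeds were those of miR-300-3p and miR-381, equal at 6 of 7 positions. The RefSeq 3′ arms of the miR-154 and miR-382 hairpins are given for comparison, since the name of the group fits them better than the arms measured above.
rno-miR-154-3p: aAUCAUACacgguugaccuauu
rno-miR-382-3p: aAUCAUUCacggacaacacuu
The seeds of miR-382-3p, miR-487b and miR-369-3p each equalled that of miR-154-3p at 6 of 7 positions, and the seeds of the other 3′ arms in RefSeq at 2 to 4.

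miR-487b, the member whose seed lies near that of miR-154-3p and that was bright on both arrays, had densities of 2237, 2548 and 3573 (lowest, median, highest) on the vehicle array. On the alcohol array they were 3984, 4180 and 4531, all above the vehicle spots. After normalization the signals were 3221 for vehicle and 3473 for alcohol, the spots overlapped, and the log2 ratio was 0.11 ± 0.24, smaller than its SD over spots. That ratio was 0.64 without normalization, 0.94 with 5S rRNA scaling and -0.58 with median scaling, each past 1.3-fold. The spread over spots came from the vehicle array, where the coefficient of variation was 18.5%, against 4.95% on the alcohol array. Its vehicle spots followed their place on the array, with mean densities of 3380.5 in the upper, 2826.5 in the middle and 2342 in the lower block of rows. This fall was not particular to miR-487b. The median densities of these blocks were 1045.6, 899.2 and 814.1 on the vehicle array. On the alcohol array they were 1992.5, 1782.1 and 2146.5, without a steady fall. From the upper to the lower block the vehicle means also fell for miR-154 (438.9 to 352.6), miR-323 (685.2 to 508.1) and miR-410 (440.6 to 362.9). For miR-382 the vehicle means of these blocks were 4288, 3755 and 4057, and its coefficients of variation were 6.53% and 6.88%.

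miR-369-3p, known for binding an AU-rich element of the Tnf messenger, was near background. Its highest density on the vehicle array was 267.2, under the threshold, and on the alcohol array its densities were 162.8, 191.0 and 220.6, with 5 of 9 spots over the threshold. No fold is given, because its signal on the alcohol array was below the lowest signal among miRNAs detected on the vehicle array. The other arm of that hairpin, miR-369-5p, was detected on both arrays, with median densities of 363.4 and 643.5, a log2 ratio of 0.19 ± 0.23 and overlapping normalized spots. On this array, then, the probe of the 5′ arm was detected on both arrays and that of the 3′ arm was not.

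miR-300-3p and miR-381 have probe targets that share a run of 15 bases, the longest between any pair of members, so each probe may also bind the other miRNA to some extent, which was not tested. miR-300-3p had densities of 319.3, 336.6 and 386.3 (lowest, median, highest) on the vehicle array and 418, 443 and 485 on the alcohol array. The normalized signals of 304 and 274 gave a log2 ratio of -0.15 ± 0.17. miR-381 had densities of 274.4, 298.9 and 322.0 on the vehicle array, where 7 of 9 spots were over the threshold, and 348, 374 and 419.7 on the alcohol array. Its normalized signals of 226 and 233 gave a log2 ratio of 0.04 ± 0.12. Both differences were smaller than the SD over spots, and for both miRNAs the normalized spots of the arrays overlapped. The direction turned with the scaling. Without normalization miR-300-3p was at 0.80 and miR-381 at 0.84, past 1.3-fold, and with median scaling they were at -0.42 and -0.38.

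miR-323 and miR-410 lay on the side of miR-154. miR-323 had densities of 433.9, 614.5 and 728 (lowest, median, highest) on the vehicle array and 1063, 1252 and 1360 on the alcohol array, apart before normalization. Its normalized spots overlapped, and its log2 ratio was 0.31 ± 0.33. miR-410, which in the pancreas is known for a part in insulin secretion, had densities of 315.0, 392.2 and 471.5 on the vehicle array and 679, 817 and 902 on the alcohol array. Its normalized signals were 386 and 496, with overlapping spots, a log2 ratio of 0.36 ± 0.26 and 9 of 9 spot pairs higher on the alcohol array. That ratio, 1.285-fold, was just under 1.3-fold, and with a linear trend on the GC content of the probe target removed it was 0.04. Against the median of the 150 detected miRNAs, miR-323, miR-410, miR-381 and miR-487b were each above it in 18 of 18 other ways of processing, though for miR-410 by as little as 0.05 and for miR-381 and miR-487b by 0.02 and 0.01.

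After cyclic loess miR-409-3p was the member nearest to miR-382 in its ratio. The nearest was miR-487b without normalization between arrays and with scaling by a constant, and miR-300-3p with quantile normalization. The densities of miR-409-3p were 554.6, 641.4 and 765 (lowest, median, highest) on the vehicle array and 877, 949 and 1077 on the alcohol array, and its normalized signals were 746 and 599. The log2 ratio was -0.32 ± 0.20, which is 80.3% of vehicle, and 8 of 9 spot pairs were lower on the alcohol array, while the ranges of the normalized spots overlapped. With the linear trend on GC content removed the ratio was -0.09. Against the median of the 150 detected miRNAs it was lower in 13 of 18 other ways of processing and higher in 5, and for miR-300-3p these counts were 12 and 6.

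miR-377 was under the threshold in all spots of both arrays, with highest densities of 253.6 for vehicle and 165.1 for alcohol, so no ratio is given. Its probe target begins 3 bases downstream of the mature sequence that RefSeq lists, and its seed is a different one.
rno-miR-377-3p in RefSeq: uGAAUCACacaaaggcaacuuuu
For the other 9 members the seed of the probe target and of the RefSeq sequence were the same. How the placement of the miR-377 target affects its brightness was not tested.

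The array also carried the other arm of 5 member hairpins. miR-382*, the 3′ arm opposite miR-382, was at 238.5 to 257.6 on the vehicle array, with 0 of 9 spots detected, and at 172.5 to 239.7 on the alcohol array, with 8 of 9. miR-300-5p and miR-409-5p were likewise detected on the alcohol array alone, and miR-323* on neither. For these miRNAs near background the lower threshold of the alcohol array enters the call, since the mean raw density of each was lower there, at 65.8% to 83.7% of the vehicle density. No fall of miR-382* alongside miR-382 could therefore be measured.

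**Figure D2:**
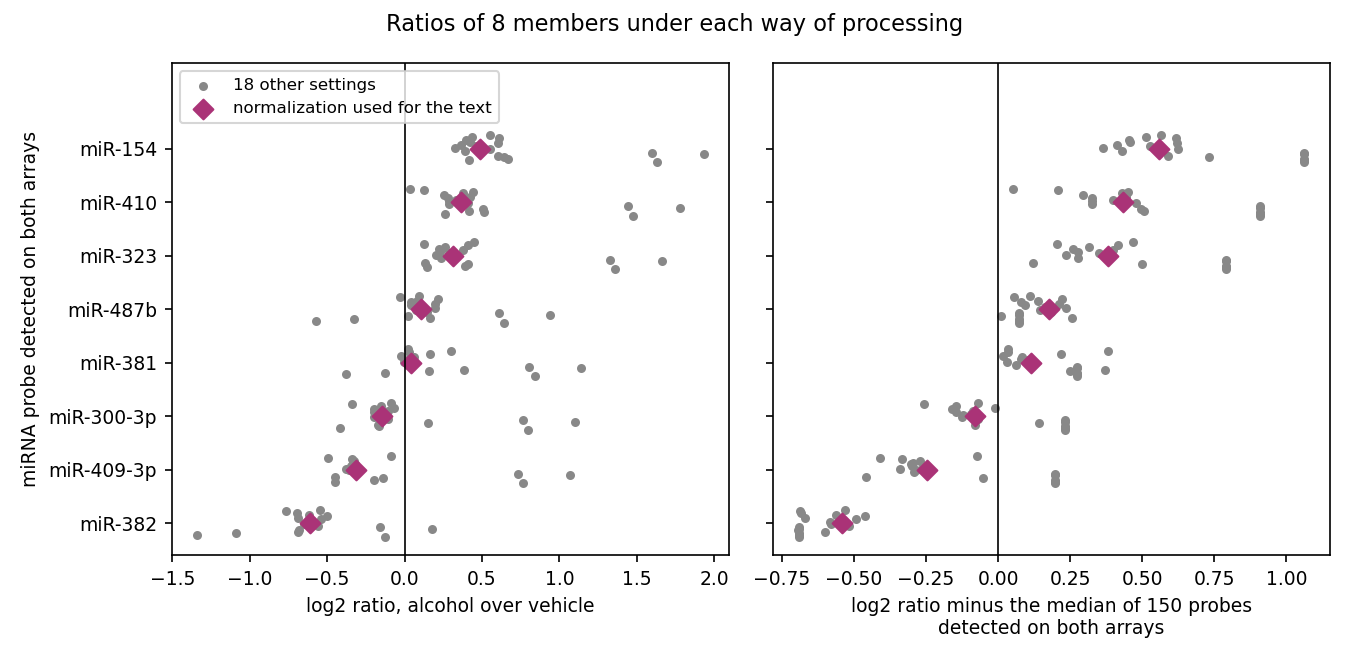
Log2 ratios, alcohol over vehicle, of the 8 members detected on both arrays (left), and the same ratios minus the median that all 150 detected miRNAs had under the same processing (right). Diamonds are the values used in the text and grey points are 18 other ways of processing. In the right panel miR-382 lies between -0.69 and -0.46 and miR-154 between 0.36 and 1.06, while the points of miR-300-3p and miR-409-3p lie on both sides of 0.

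The 10 hairpins lie on the plus strand of chromosome 6 in the rat assembly GRCr8, where each probe target was found within its RefSeq hairpin by sequence. From the hairpin of miR-323, which starts first, to that of miR-410 they span 32.9 kb, in the order miR-323, miR-300, miR-381, miR-487b, miR-382, miR-154, miR-377, miR-409, miR-369 and miR-410, and 35 miRNA genes start within this span. The miR-382 hairpin is at chr6:134569944-134570023 and the miR-154 hairpin at chr6:134574352-134574435, with starts 4.41 kb apart. The members at opposite ends of the ratios are thus next to each other in the order of the members. miR-409 and miR-410, which start 0.58 kb apart, also had ratios of opposite sign, -0.32 and 0.36, though without normalization between arrays, and with 5S rRNA or spike scaling, both were above 0.

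The rest of the region was represented by 39 other probes, for the miRNA genes within 1 Mb of the gene for miR-382, and 19 of these were detected on both arrays. Of the 19, 7 were lower by at least 1.3-fold and 3 were higher, which is 36.8% and 15.8%, against 25.3% and 21.3% of all 150 detected miRNAs and 12.5% of the 8 members in each direction. Their median log2 ratio was -0.15, against 0.08 for the members. Without normalization the counts were 1 and 9 of the 19, beside 10 and 93 of the 150, and the median was 0.31. With 5S rRNA scaling they were 0 and 12, beside 2 and 110 of the 150, and the median was 0.61. With median scaling they were 12 and 1, beside 97 and 15 of the 150, and the median was -0.91. The difference between the medians of the 19 and of the members was not tested. In 8 of the 19 every normalized alcohol spot was below every vehicle spot, and in 0 of the 19 above, beside 24.0% and 10.7% of the 150. These counts too depended on the scaling, and were 1 and 10 without normalization (15 and 87 of the 150), 0 and 13 with 5S rRNA scaling (3 and 112) and 1 and 8 with spike scaling (16 and 81). They were 11 and 0 with median scaling (88 and 8) and 10 and 1 with the 75th percentile (70 and 14).

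The lowest of these ratios was that of miR-134, a miRNA known for limiting the size of dendritic spines through Limk1, whose hairpin starts 0.37 kb after that of miR-382. Its densities were 887.5, 1021.5 and 1075.5 (lowest, median, highest) on the vehicle array and 628, 749 and 787 on the alcohol array, apart before normalization as well as after it, with a log2 ratio that came to -1.44 ± 0.10. miR-485, known for restraining the synaptic vesicle protein SV2A, had a log2 ratio of -1.05 ± 0.11, and miR-370 one of -0.62 ± 0.14, which turned to 0.22 and 0.06 with 5S rRNA scaling, where miR-134 was at -0.11. miR-370 was near the detection threshold, with densities of 282.3 to 315.3 on the vehicle array and a mean of 217.3 on the alcohol array. The highest were miR-376b-3p at 0.77 ± 0.45, miR-543* at 0.41 ± 0.24 and miR-411 at 0.40 ± 0.15, whose normalized spots overlapped between the arrays. In the same order they were at 1.73, 1.36 and 1.44 without normalization. With median scaling they were at 0.51, 0.14 and 0.22, where miR-543* and miR-411 were short of 1.3-fold. miR-134 and miR-382 are neighbours that were both lower after normalization, and the next member in order, miR-154, was higher.

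**Figure D3:**
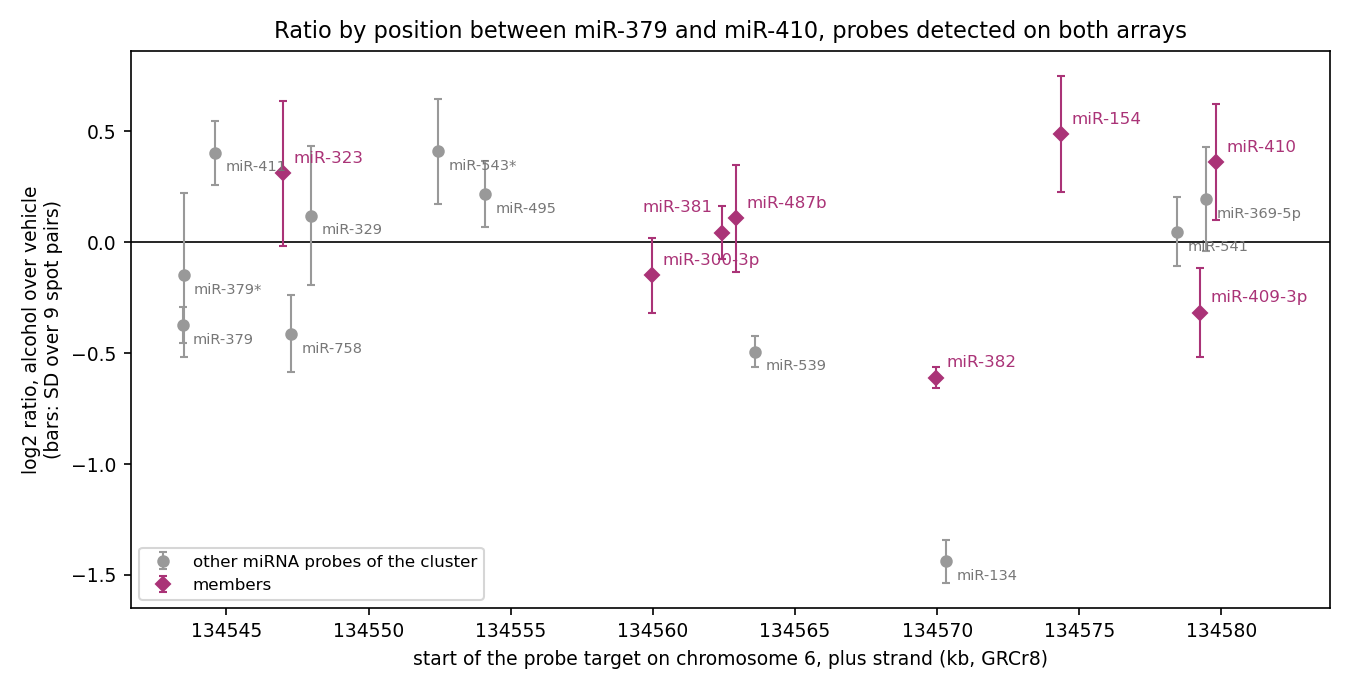
Log2 ratio, alcohol over vehicle, against the start of the probe target on chromosome 6 (kb, GRCr8), for 19 probes between miR-379 and miR-410 that were detected on both arrays and whose target was matched by sequence. Without such a match, 3 more detected probes of the stretch, miR-485 at -1.05, miR-376b-3p at 0.77 and miR-376b-5p at -0.30, are not drawn. Diamonds are the 8 members, circles the 11 other miRNAs, and bars the SD over 9 spot pairs. Low and high ratios are interspersed along the stretch, with miR-134 at -1.44 and miR-382 at -0.61 (0.18 with 5S rRNA scaling) beside miR-154 at 0.49.

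The 5 miRNAs of the 150 whose ratio was nearest to that of miR-382 were miR-433, miR-151, miR-370, miR-361 and miR-378, all within 0.03 of it on the log2 scale. Of these, miR-433 and miR-370 belong to the same region, and miR-370 was near the detection threshold. miR-433 had densities of 3477, 4013 and 4358 (lowest, median, highest) on the vehicle array and 3375, 3736 and 3887 on the alcohol array, and a log2 ratio of -0.60 ± 0.05, which like that of miR-382 was 0.18 with 5S rRNA scaling. For all 5 the normalized alcohol spots lay below the vehicle spots, as for miR-382 and for 36 of the 150 in all (24.0%). The 5 were chosen by their ratio, so their count follows largely from that choice. Before normalization the spots of miR-433, miR-151 and miR-378 overlapped between the arrays, and those of miR-370 and miR-361 did not. The likeness to miR-382 is over 1 pair of arrays and 1 normalization. Without normalization miR-382 was at -0.12, close to miR-433 at -0.12 and miR-151 at -0.18, while miR-370 at -0.24, miR-361 at -0.34 and miR-378 at 0.39 lay further from it. With 5S rRNA scaling miR-361, at -0.04, was of the opposite sign to miR-382.

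Among miRNAs that mark cell types, the neuronal ones were bright on both arrays, as 4 of 4 were detected, with summed mean densities of 87190 for vehicle and 71404.5 for alcohol. miR-9 was the brightest of them at 33523 and 26758, and its log2 ratio of 0.72 had an SD over spots of 2.58 and was 0.03 with the median over spots. The log2 ratios of miR-124, miR-128 and miR-138 were 0.03, 0.02 and -0.18. Without normalization they were -0.15, -0.40 and 0.33, each of the opposite sign, and that of miR-128 was past 1.3-fold. Of the other lists, 0 of 5 blood miRNAs (miR-451, miR-144, miR-223, miR-142-3p and miR-142-5p) were detected on either array, with summed densities of 1224 and 739.6 at the level of background.

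Some markers of other cells differed between the arrays. The oligodendrocyte miRNA miR-338 was detected on the alcohol array alone, at least 3.09-fold higher, with mean densities of 251.6 for vehicle and 847 for alcohol, whereas miR-219-5p, at 261.7 and 222.4, passed the lower threshold of the alcohol array alone, with a bound of 1.0-fold, so no difference in it could be measured. Summed over these 2 miRNAs the densities were 513 and 1069. The choroid plexus miRNA miR-204 was higher with alcohol by at least 4.54-fold, with mean densities of 276.4 and 1568, and miR-211 was detected on neither, which gave sums of 523.9 and 1713. These bounds set the alcohol signal against the lowest signal among miRNAs detected on the vehicle array, or the miRNA's own where that was higher. The liver miRNA miR-122 had a log2 ratio of -2.16 ± 0.12, and of -1.15 without normalization, with mean densities of 611 and 285.7. Of 4 muscle miRNAs, miR-133a was detected, on the vehicle array alone and at least 1.20-fold higher there, while miR-1, miR-133b and miR-206 were not, and the sums of 1038.5 and 626 were near the level of background, since the median mismatched control spot had densities of 241.0 and 144.8. The part of these differences in the ratios of miR-382, miR-154 and their relatives was not tested, and fewer cells of a type cannot be told apart from less RNA per cell.

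The processed signals deposited with the arrays gave 4463 and 2621 for miR-382 on the vehicle and the alcohol array, which is 58.7% of vehicle. For miR-154 they were 325.8 and 439.8, or 135.0% of vehicle. miR-409-3p, at 80.3% of vehicle after cyclic loess, was at 684 and 486.5 in these signals, or 71.1% of vehicle (log2 ratio -0.49), and so lower by more than 1.3-fold. The order of the 8 members had miR-382 lowest and miR-154 highest in these signals too.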

How the data were processed

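Small RNA of the NAc was hybridized to 1-colour Cy3 arrays, 1 for vehicle and 1 for alcohol. The authors deposited spot intensity, the mean brightness of a spot from which no background had been taken, and 1 processed intensity per probe after background subtraction and a cyclic normalization, whose tool and settings are not given in the sources used here. These processed values (medians 42.7 for vehicle and 50.2 for alcohol) followed the spot densities of their own array (Spearman's rho 0.992 and 0.996 over 349 probes), on a linear scale and not as ratios, and served as an alternative.

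Spot densities of all 3968 spots were background-corrected on the foreground with the normexp method of limma 3.58.1 (R 4.3.3, offset 50), log2-transformed and averaged over 9 spots. The offset understates ratios of dim miRNAs. Cyclic loess (span 0.7, 3 iterations) over 349 probes followed. Detection gave 151 miRNAs for vehicle, 196 for alcohol and 150 on both arrays. The SD of a ratio is over 9 spot pairs of equal position. Hairpins were aligned globally with Biopython 1.88 in Python 3.11.15 (match 1, mismatch 0, gap opening -1, gap extension -0.5).

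The members and lists were chosen with earlier results of these data known. Named are the members, the other arms of their hairpins, the 5 probes nearest to miR-382 in ratio, the 3 lowest and 3 highest ratios of other miRNAs of the region, and markers of cell types. Region genes came from the RefSeq table of GRCr8, to which 49 probes were matched by name, 45 of them also by sequence. The number of arrays limits the precision. With 1 array in each group no test was made and no p-value is given, and the t-test named by the series was not run, since repeat spots are not replicates. Background correction, spot averaging and cyclic loess were tested on simulated arrays, with 2-fold changes planted in bright probes alone. Apart from miR-382 and miR-487b, the detected members are dimmer than those probes, and all member differences after cyclic loess were under 2-fold. The simulation therefore does not show how well such differences are recovered. Detection and the other ways of processing were not simulated. As alternatives, 15 ways of scaling, background correction and spot averaging were planned, and 3 that use the spots of a single block of rows were chosen after seeing the data.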

Additional observations from a re-analysis of the deposited data

How the results depend on the processing

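The scaling between arrays moved the values most. Across 15 settings planned at the start and the 3 row blocks chosen after seeing the data, the log2 ratio of miR-154, miR-323 and miR-410 stayed above 0 in all 18, while miR-382 reversed to 0.18 with scaling to 5S rRNA probes. The median of the 150 detected miRNAs was -0.07 after cyclic loess, 0.57 with no normalization, 0.53 with scaling to the perfect-match calibration spikes, 0.87 with the 5S rRNA probes, -0.65 with median scaling and -0.40 if scaled to the 75th percentile. Without normalization 10 of the 150 were lower and 93 higher by at least 1.3-fold, and these counts were 97 and 15 with median scaling, 2 and 110 for 5S rRNA, 12 and 87 for the spikes, and 75 and 27 for the 75th percentile. Members lower by at least 1.3-fold, 1 of 8, numbered 0 without normalization, with 5S rRNA or spike scaling and at 2-fold, 4 with median scaling, and 2 with loess on detected miRNAs and with the deposited processed signals. Of the 150, 20.7% were lower with loess on detected miRNAs and 32.0% with the deposited processed signals. Members higher by at least 1.3-fold, 1 of 8, numbered 7 without normalization and with 5S rRNA or spike scaling, 3 with the 75th percentile, quantile normalization, loess on detected miRNAs, the last 4 spots and the lower row block, 2 with the mismatched control baseline and with the GC trend removed, and 0 with the median of spots, the first 5 spots, 1.5-fold and 2-fold. Members with spots that did not overlap in the lower direction, 1 of 8, numbered 0 without normalization and with 5S rRNA or spike scaling, and 3 with median scaling, where the share of the 150 was 10%, 2.0%, 10.7% and 58.7%. In the higher direction, 0 of 8, they numbered 7 without normalization and with 5S rRNA or spike scaling, 2 with loess on detected miRNAs, and 1 with the 75th percentile, quantile normalization and no background correction, where the share of the 150 was 58.0%, 74.7%, 54.0%, 14.0%, 9.3%, 8.7% and 13.3%. The median log2 ratio of the members, 0.08, was -0.40 with median scaling, 0.82 without normalization, 1.12 with 5S rRNA scaling and 0.79 with spike scaling, and 0.11 without miR-382. That of the other miRNAs of the region, -0.15, was -0.91 with median scaling, 0.31 without normalization, -0.66 for the 75th percentile, 0.61 with 5S rRNA scaling, 0.27 with spike scaling, -0.33 with the first 5 spots and -0.30 with the upper row block. The cause of these shifts was not tested. No paired analysis was possible because there is 1 array for vehicle and 1 for alcohol. The signal over background limits the dimmer members. On the vehicle array, with its threshold of 277.7, miR-369-3p and miR-377 were under it, and the lowest spots of miR-381, miR-410, miR-300-3p and miR-154 were at 274.4, 315.0, 319.3 and 329.3.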
